A study of Mus musculus with 7 samples.

Results

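The 58 cells described here were the oocytes of the mouse ovary at postnatal day 5 (P5). They were chosen in the P5 library alone, as cells with at least 2000 genes detected and at least 5 unique molecular identifiers (UMIs, each 1 captured RNA molecule) of the germ cell genes Dazl and Ddx4, summed. They made up 58 of the 52542 cell barcodes of the series, and 58 of the 3974 P5 cells with at least 2000 genes, a share of 1.46% (exact binomial 95% interval 1.11 to 1.88%). The study examined dissociated gonads and ovaries of untreated, wild-type C57BL/6J mice by droplet single-cell RNA sequencing at 7 ages between E11.5 and P5, with the aim of following germ cells and somatic cells while follicles form. Each age was a single library, which the study's results section describes as several gonads while the labels speak of an individual ovary. There was thus no replicate at any age, no test was possible, and age and library cannot be told apart. P5 and P1 ovaries were both digested in trypsin for 80 min and passed through strainers of 70 and 30 µm, which sets an upper limit on the size of the cells recovered. The 3916 other P5 cells with at least 2000 genes, and the 192 P1 cells that met the same rule, serve for comparison.

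By P5 most mouse oocytes lie in primordial follicles, each a small oocyte arrested at the dictyate stage of meiotic prophase inside a flat layer of granulosa cells, while the earliest follicles in the medulla have already begun to grow. An oocyte that enters growth secretes the zona pellucida, an extracellular coat of ZP glycoproteins, and stores maternal proteins and RNAs, among them those of the subcortical maternal complex, which the embryo later depends on. Figla, a basic helix-loop-helix factor, and Nobox, a homeobox factor, are the known activators of much of this programme, and Figla acts through E-box sequences near its target genes.

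Promoters of Zp3, Padi6 and Nlrp5 are shown because the values below turn on these genes. Each is the stretch of 250 bases before a gene start listed in RefSeq (GRCm38.p6), written 5′ to 3′ on the gene's own strand, with every E-box match (CANNTG, the same motif on both strands) in capitals. The Zp3 stretch at chr5:135979855-135980104 (plus strand) held 3 matches, beginning 181, 134 and 55 bases before the start. The Padi6 stretch at chr4:140742644-140742893 (minus strand) held 2, beginning 166 and 78 bases before it. The Nlrp5 stretch at chr7:23385639-23385888 (plus strand), the upstream of 2 listed starts, also held 2, beginning 145 and 107 bases before it. Of all 32851 promoter stretches of the same length, 66.2% held at least 1 CANNTG. So did 5 of 5 stretches, from 5 of the 10 listed zona and secreted-factor genes. Of 12 stretches from the 8 subcortical complex genes, some with more than 1 start, 11 (91.7%) did. At least 2 matches were held by 31.8% of all stretches, by 3 of the 5 and by 7 of the 12. The Ooep stretch, not shown, held 1 match and the Uchl1 stretch 0. A match describes the letters and is not a bound site.
Zp3: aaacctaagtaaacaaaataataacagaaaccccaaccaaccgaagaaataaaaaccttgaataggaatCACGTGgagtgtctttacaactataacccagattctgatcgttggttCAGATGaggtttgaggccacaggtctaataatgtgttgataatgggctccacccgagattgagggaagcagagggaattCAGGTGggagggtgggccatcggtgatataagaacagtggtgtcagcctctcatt
Padi6: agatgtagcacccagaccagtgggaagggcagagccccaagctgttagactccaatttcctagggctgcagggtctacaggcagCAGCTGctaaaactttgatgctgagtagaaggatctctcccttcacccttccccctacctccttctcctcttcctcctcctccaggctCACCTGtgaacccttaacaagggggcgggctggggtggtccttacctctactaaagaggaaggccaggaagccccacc
Nlrp5: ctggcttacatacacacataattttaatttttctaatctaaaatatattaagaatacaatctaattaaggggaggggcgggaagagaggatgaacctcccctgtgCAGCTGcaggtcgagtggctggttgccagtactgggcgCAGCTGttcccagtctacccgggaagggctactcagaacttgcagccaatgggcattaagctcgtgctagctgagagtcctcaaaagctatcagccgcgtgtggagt

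Far more UMIs were captured per oocyte than per other P5 cell at the median. The oocytes had between 6507 and 154669 UMIs, with a median of 61592.5 and quartiles of 35675.5 and 76304.8, against a median of 7722 in the other P5 cells. Only the oocytes had to hold 5 germ UMIs, which shallow cells reach less often, and the part of this rule in the gap was not tested. Genes detected ran from 2361 to 9319 with a median of 7598, against 2659 in the others. With every cell thinned to 4000 UMIs the medians were 1876 and 1721 genes, so that most of the gap in detected genes was no longer seen at equal depth. Of the 58 oocytes, 8 had fewer than 20000 UMIs, 43 had at least 40000 and 4 had at least 100000. By the same rule P1 gave 192 oocytes among 3771 cells (5.09%, 4.41 to 5.84%) with a median of 26868 UMIs, and E18.5 gave 358 with a median of 13539. The whole P5 library held 48790024 UMIs in 6519 barcodes, and the P1 library 52076402 in 6409.

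Few cells lay just outside the threshold, and more lay just inside it. Among P5 cells with 2000 genes, 64 had 1 UMI of Dazl plus Ddx4, 3 had 2, 1 had 3, none had 4 and 4 had 5. The 4 cells just outside, with 2 to 3 UMIs, held 5324 to 14009 UMIs in all, with Uchl1 at 0 to 23 UMIs and Tle6 at 1 to 7, and 1 of them carried 9 UMIs of the granulosa gene Foxl2. Those with Uchl1 at 15 and 23 UMIs had Tle6 at 7 and 6 and Foxl2 at 0, and may be shallow oocytes that the rule left out. The 12 cells just inside, with 5 to 10, held 6507 to 31959 UMIs, with Padi6 at 1 to 24, Uchl1 at 2 to 63, Zp3 at 0 to 65 and Foxl2 at 0 to 1. One further barcode had 6 germ UMIs but fewer than 2000 genes and was not counted. Between 42 and 98 barcodes were shared with each of the other libraries, except that none was shared with E16.5. Of the oocyte barcodes, 1 recurred at E14.5 and 1 at P1, in neither case on a germ cell there.

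The cells were also described by markers that the rule did not name. The 5 oocyte markers were chosen with earlier results of these data known. Their high level is thus a description and no independent check of the label. The 5 oocyte markers Ooep, Zp3, Uchl1, Padi6 and Tle6 summed to 9579 CPM (UMIs of a gene summed over a pool of cells, per 1000000 UMIs of the pool) in the oocytes and to 102 in the other P5 cells. Each oocyte carried at least 25 UMIs of this list, with a median of 431.5. The lists of other ovarian cell types were at low levels in the oocytes. The 12 granulosa genes summed to 62.0 CPM against 1980 in the other cells, and their most abundant member in oocytes was Serpine2 at 32.4 CPM. The 8 mesenchymal genes summed to 95.3 against 2994 CPM, led by Col3a1. The 6 surface epithelial genes summed to 24.0 against 613 CPM, led by Krt18, and the 5 mural genes to 19.0 against 524, led by Acta2 with Cspg4 at 0. The 6 endothelial genes summed to 9.94 against 79.2 CPM with Cdh5 at 0, the 7 immune genes to 14.0 against 174 with Ptprc at 0, and the 3 rete genes to 0.292 against 4.84 with Pax8 and Cdh16 at 0. The erythroid list was the highest of them, at 1464 CPM in oocytes against 7482 in the other cells and 4522 in P1 oocytes, and Hbb-bs, a beta-globin gene, gave 781 CPM of it. Haemoglobin RNA was thus present on every oocyte, at 18 UMIs or more of the erythroid list, and its part in other values was not tested.

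**Figure D1:**
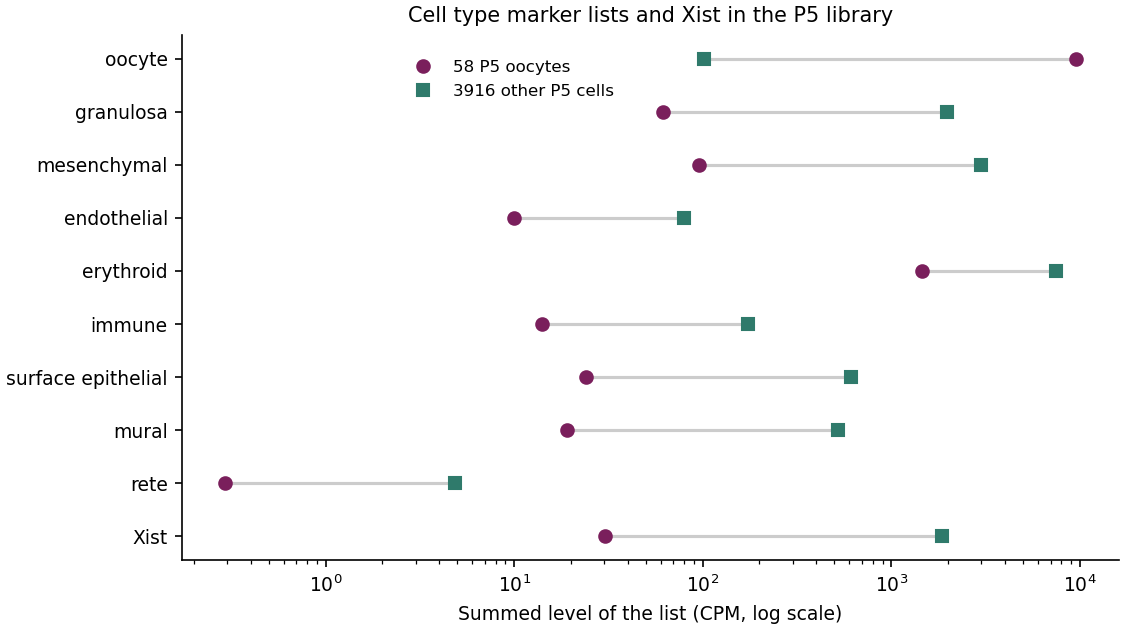
Summed level of each marker list, and of Xist, in the 58 P5 oocytes and in the 3916 other P5 cells, in CPM on a log axis. The oocyte list stands at 9579 CPM in oocytes and 102 in the other cells, and every other list, with Xist, is lower in the oocytes.

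Because the rule chose the oocytes within P5, their difference from the other P5 cells is a description. Of 14959 genes with enough UMIs to compare, 1721 were at least 4-fold higher in the oocytes and 2694 at least 4-fold lower, 29.5% in both directions together. Outside mitochondrial and ribosomal protein genes, the RNAs with most UMIs were Ubb, a polyubiquitin gene, at 5114 CPM, Dppa3 (Stella), a maternal factor, at 4439, and Malat1, a nuclear long noncoding RNA, at 4059 against 37069 in the other cells. Tmsb10, an actin-binding thymosin, came next at 3712 CPM, then the chaperones Hsp90ab1 and Hsp90aa1 at 3355 and 3331, Ooep at 3131, Eef1a1, an elongation factor, at 2909 and Uchl1, a neuronal and germline ubiquitin hydrolase, at 2886. The largest ratios to other P5 cells, among genes at 100 CPM or more, belonged to Btg4, an adaptor that brings a deadenylase to maternal messages, at 606-fold, to Tsga10ip at 550-fold and to Oas1d, an oocyte member of the oligoadenylate synthetase family, at 525-fold. Zp3 stood at 484-fold and Nobox at 438-fold in that order.

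The zona and secreted-factor genes had the highest median ratio of P5 to P1 oocytes among the role lists. Of 10 genes listed, 7 had the 20 UMIs needed for a ratio, and all 7 were at least 2-fold higher at P5, with a median ratio of 11.6. Across all 11276 genes compared, 14% were at least 2-fold higher at P5 and 10.3% at least 2-fold lower, and the median ratio was 0.995. The intervals given with levels and ratios are exact 95% intervals of the pooled UMI counts. They cover counting error only and not the variation between animals, and cells of a library are not replicates.

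Zp3, a sperm-binding zona glycoprotein (chr5:135980099-135988624, plus strand, GRCm38 with GENCODE vM21 gene bounds as for the other genes placed here), ranged over the 58 oocytes from 0 to 4801 CPM with a median of 449, and had a UMI in 57. Pooled, it stood at 1179 CPM (1143 to 1216) at P5 and 102 CPM (93.8 to 110.4) at P1, a ratio of 11.6 (10.6 to 12.6). Zp2, another coat glycoprotein, ran from 0 to 2327 CPM per cell with a median of 349, and was 7.03-fold higher at P5 (6.41 to 7.72). Zp1, which cross-links the coat filaments, had a UMI in 45 oocytes and moved from 6.01 CPM at P1 to 246 at P5, a ratio of 41.0 (29.2 to 59.2). The spread among the P5 oocytes was wide for each of the 3 coat genes.

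Gdf9, the growth factor that oocytes send to granulosa cells (chr11:53431023-53437904, plus strand), ranged from 0 to 3504 CPM per oocyte with a median of 162. Its pooled level was 481 CPM at P5 and 42.4 at P1, a ratio of 11.4 (9.92 to 13.0). A single oocyte, the deepest, held 32.9% of its UMIs, and without that cell the level was 338 CPM and the ratio 7.98. Bmp15, the partner of Gdf9, gave only 15 UMIs in 12 oocytes and none at P1, too few for a ratio. The oocyte-secreted proteins Oosp1 and Oosp2 were unevenly spread. Oosp1 had 90 UMIs in 13 oocytes, 43 of them in 1 cell, and none at P1, which makes it at least 51.1-fold higher at P5 against a floor of 3 counts over the P1 pool, or 27.9-fold without the deepest oocyte, which held the 43. Oosp2 had a UMI in 24 oocytes and was 46.0-fold higher at P5 (21.9 to 116). Bmp6 was low, at 8.19 CPM in oocytes and 6.91 in the other P5 cells.

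**Figure D2:**
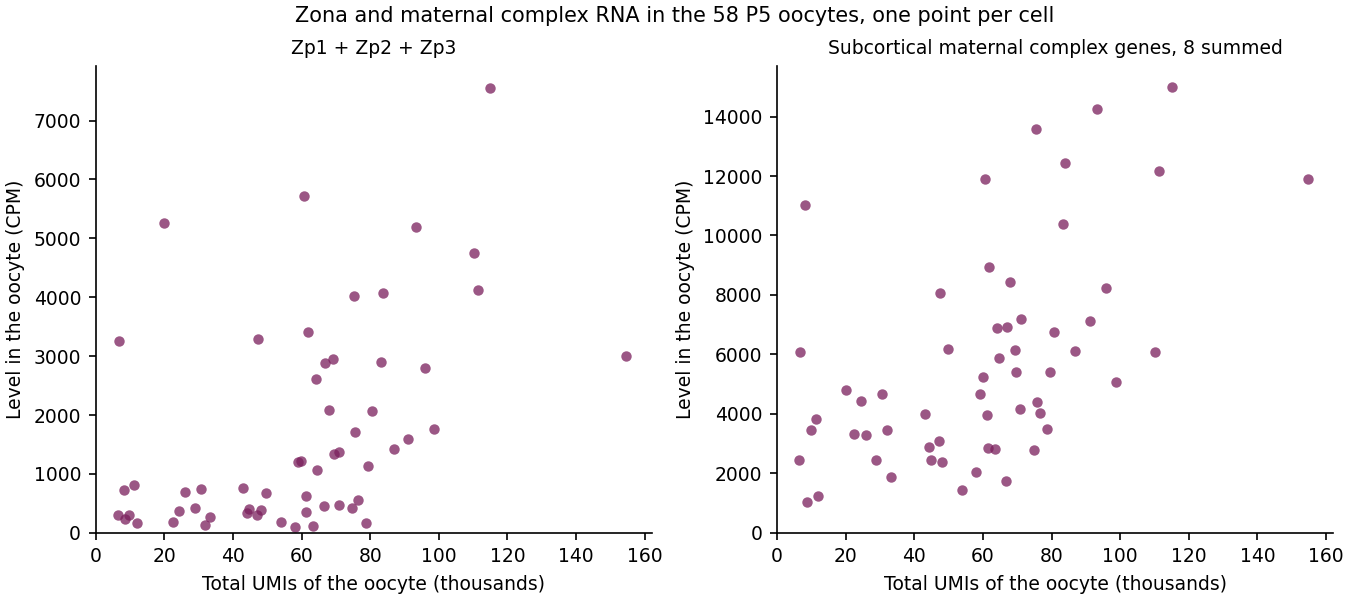
Summed CPM of Zp1, Zp2 and Zp3, and of the 8 subcortical maternal complex genes, in each of the 58 P5 oocytes, against the total UMIs of the cell. Both rise with depth (Spearman's rho 0.526 and 0.558), with a wide spread among cells of like depth.

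The subcortical maternal complex, an assembly under the oocyte membrane needed for the first embryonic divisions, was represented by 8 listed genes. All 7 that could be compared were at least 2-fold higher at P5, with a median ratio of 3.27. Ooep, a core member with a KH-like domain (chr9:78376109-78378725, minus strand), had a UMI in all 58 oocytes and in 13.5% of the other P5 cells, which are shallower, and its level in the oocytes was 116 to 8933 CPM with a median of 1912. It stood at 3131 CPM (3072 to 3191) at P5 and 159 CPM (149 to 169.8) at P1, a ratio of 19.7 (18.4 to 21.1). Padi6, a peptidylarginine deiminase of the cytoplasmic lattices (chr4:140727355-140742643, minus strand), also had a UMI in all 58, against 4.62% of the other P5 cells, at 83.7 to 4720.2 CPM with a median of 1009. Its pooled levels were 1539 CPM at P5 and 90.8 at P1, a ratio of 16.9 (15.5 to 18.6).

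The ratios of the remaining members differed widely. Tle6, a groucho-like member (chr10:81590904-81601073, minus strand), had a per-cell median of 742 CPM and a range of 0 to 1667, and its ratio was 3.27 (3.07 to 3.49). Khdc3, a KH-domain member, was low at P1, at 7.56 CPM, and reached 158 at P5, a ratio of 20.9 (15.3 to 29.0). Zbed3 had a ratio of 2.49, of which the deepest oocyte supplied 31.9% of the P5 UMIs, and without it the ratio was 1.78. Nlrp4f stood at 221 against 85.2 CPM, a ratio of 2.59 (2.31 to 2.91). Among 13 further NLRP and oogenesin genes, which are close copies of each other and may share reads, only Nlrp4b, Nlrp4c and Nlrp14 could be compared. All 3 were higher at P5, and Nlrp14, which is restricted to the germline, went furthest, from 14.3 to 365 CPM, a ratio of 25.6 (20.5 to 32.4).

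Nlrp5 (Mater) at chr7:23385889-23441922 (plus strand), a complex member named for its maternal-effect phenotype, had no UMI in many oocytes. Over all 58 oocytes it ran from 0 to 1779.6 CPM with a median of 186, and 40 cells had a UMI. Among the 43 oocytes with at least 40000 UMIs, 13 had no Nlrp5 UMI at all, 2 had 1 to 4, and 28 had 5 or more, up to 169. The deepest cell without one held 98641 UMIs, so that a count of 0 there allows up to 30.4 CPM (3 counts). Khdc3 was also patchy in the same 43 cells, at 0 in 11, at 1 to 4 in 16 and at 5 or more in 16. By contrast Ooep, Padi6, Tle6 and Zbed3 were at 5 UMIs or more in all 43, and Nlrp4f in 42. For Nlrp5, P1 oocytes of that depth showed a like division, with 19 of 52 at 0, 5 at 1 to 4 and 28 at 5 or more. The pooled ratio of Nlrp5 was 2.86 (2.61 to 3.14), from 125 CPM at P1 to 357 at P5, and it averages over cells with and without a UMI.

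**Figure D3:**
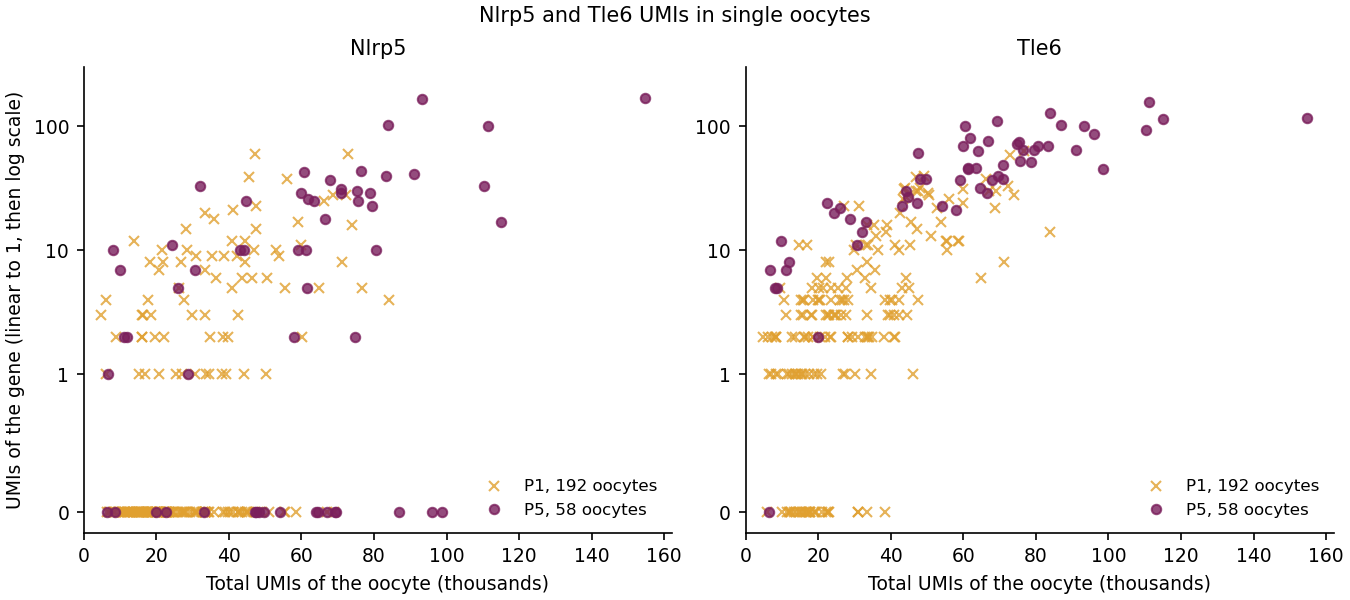
UMIs of Nlrp5 and of Tle6 in each oocyte against its total UMIs, with P5 oocytes as circles and P1 oocytes as crosses, UMIs on a scale that is linear near 0 and logarithmic above. At 40000 UMIs or more, 13 of 43 P5 oocytes lie at 0 for Nlrp5 and none for Tle6.

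Genes that regulate the oocyte programme included members above and members below their P1 level. Of 10 listed transcription regulators 3 were at least 2-fold higher and 2 at least 2-fold lower at P5, with a median ratio of 0.880. Among all genes compared the shares were 14% and 10.3%. Figla had a UMI in every oocyte, at 154 to 3511 CPM with a median of 1003, and its pooled level was 1117 CPM at P5 against 1692 at P1, a ratio of 0.66 (0.636 to 0.685). Sohlh1, a bHLH factor of early oocytes, was at 673 and 680.4 CPM, and its ratio interval of 0.939 to 1.04 contained equality. Nobox was at 309.9 CPM at P5 and 176 at P1, a ratio of 1.77 (1.62 to 1.93), and Lhx8, a LIM homeobox factor, at 239 and 305. Figla, Sohlh1, Nobox and Lhx8 were thus all within 2-fold of their P1 level. Taf4b, a germline TFIID subunit, was lower at P5 with a ratio of 0.45 (0.358 to 0.561), which was 0.55 and so no longer 2-fold lower as a mean of per-cell CPM. Also lower was Foxo3, the factor that holds primordial oocytes dormant, with 0.443 (0.389 to 0.504). Gtf2a1l rested on 26 UMIs at P5 and 3 at P1, a ratio of 14.8 (4.52 to 76.2), and Tbpl2, which takes the place of TBP in growing oocytes, on 29 and 18.

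Pou5f1 (Oct4) was the third regulator at least 2-fold higher, and its level over the ages went down and up again. Its 186 CPM at P5 followed 29.5 at P1, and the germ cells of earlier ages had 4.17 CPM at E18.5, 6.91 at E16.5, 228 at E14.5 and 412 at E12.5. Of 5 pluripotency genes compared, 2 were at least 2-fold higher at P5 and none lower, beside 14% and 10.3% of all genes compared. Their median ratio was 1.80. The other of the 2 was Prdm1, a repressor of early germ cells, at 4.68 CPM with a ratio of 2.48 (1.08 to 5.90). Nanog had no UMI in P5 oocytes, with an exact 95% upper limit of 1.08 CPM, and Sox2 and Utf1 had 1 UMI each, although at E12.5 they stood at 29.9, 153 and 451.5 CPM. Lin28a, an RNA-binding protein of early germ cells, was at 20.8 CPM at P5, a ratio to P1 of 1.80 (1.27 to 2.56).

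Message storage and translation was represented by 16 listed genes. Of 14 compared, 4 were at least 2-fold higher and 2 at least 2-fold lower, with a list median of 1.19. Of all genes compared, 14% were higher and 10.3% lower by 2-fold or more. The list holds Dazl, 1 of the 2 lower genes, and Ddx4, which chose the cells and are not read as results. Ybx2, the germ cell Y-box protein that coats stored messages, was at 308 and 321 CPM, Cpeb1, which controls their polyadenylation, at 265 and 216, and Elavl2 at 522 and 406. The 4 that were at least 2-fold higher were Zar1, Eif4e1b, Btg4 and Patl2. Zar1, an organiser of maternal RNA stores, went from 1.72 to 160.5 CPM, a ratio of 93.5 (50.4 to 196). It had a UMI in 32 of 58 oocytes, and the deepest cell held 207 of its 549 UMIs, without which the ratio was 61.0. Eif4e1b, an oocyte form of the cap-binding protein, had 122 UMIs at P5 and none at P1, at least 69.2-fold higher against the same floor, but 69 of the UMIs were in the deepest cell, and without it the level was 16.2 CPM and the bound 31.5-fold. Btg4 was 18.9-fold higher (13.5 to 27.2). Fmr1, another RNA-binding gene, was the other member that was lower, with a ratio of 0.472. Genes of the lists that are counted as listed but not compared had fewer than 20 UMIs over both oocyte pools, except Nlrp4g, which was not analysed here.

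Of 12 maternal-effect chromatin genes, 3 were at least 2-fold higher and none lower, beside 14% and 10.3% of all genes compared. Their median ratio was 0.889, and Nlrp5 above is 1 of the 3. Npm2 (nucleoplasmin 2), a histone chaperone of the egg, was at 473 CPM against 19.7 at P1, a ratio of 23.9 (19.8 to 29.2), but with a per-cell range of 0 to 2444 and a median of 88.7. H1foo, the oocyte linker histone, was 5.55-fold higher. Dppa3 had a UMI in all 58 oocytes and in 10.4% of the other P5 cells, and its level in the oocytes was 592 to 7976 CPM with a median of 4127, and its pooled ratio was 1.70 (1.66 to 1.74). Of the DNA methylation genes 3 of 8 were at least 2-fold higher and none lower, beside the same shares of all genes. Zfp57, a zinc finger protein that guards imprints, was at 4.0-fold and Uhrf1, the cofactor of maintenance methylation, at 3.17-fold. Dnmt1, the maintenance methyltransferase itself, was at 2.22-fold. Dnmt1 was 1.91-fold higher without the deepest oocyte, which held 105 of its 596 UMIs.

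Most of the genes of meiotic prophase moved the other way. None of 11 synaptonemal complex and HORMA genes was at least 2-fold higher at P5 and 6 were at least 2-fold lower, with a median ratio of 0.460. None of 11 cohesin and recombination genes was at least 2-fold higher and 7 were at least 2-fold lower, with a median of 0.369. Among all genes compared, 14% were at least 2-fold higher and 10.3% at least 2-fold lower. With cells thinned to 4000 UMIs all 6 of the first list and 3 of the 7 were still 2-fold lower. Of the other 4, Rad21l, Spo11 and Meiob had 0, 1 and 2 UMIs left at P5, so that the floor of 3 counts sets their thinned ratios and nothing is read from them, and Mlh3 rested on 6 UMIs at P5 and 28 at P1. Sycp3, a lateral element protein, was nevertheless still found in every oocyte, at 307 to 2657 CPM with a median of 1182, and its pooled level was 1173 CPM at P5 against 2057 at P1, a ratio of 0.57 (0.55 to 0.591). Smc1b, the meiotic cohesin subunit, likewise remained at 1188 CPM against 1931, a ratio of 0.615. Sycp1, of the transverse filament, was at 441 against 1453 CPM, 3.30-fold lower (3.12 to 3.48). The central element gene Syce3 was 9.37-fold lower (7.97 to 11.1), Sycp2 7.51-fold lower, and Hormad1, a checkpoint protein of unsynapsed axes, 5.28-fold lower. Stag3 and Spo11, a cohesin subunit and the break-forming enzyme, were at 12.9 and 1.17 CPM at P5, the second of them on 4 UMIs. The decrease was uneven within the central and lateral elements, since the central element genes Syce1, at 168 against 222 CPM, and Syce2, at 617 against 792, were within 2-fold of P1, unlike Syce3, and so was Sycp3, unlike Sycp2.

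Among germ cells of all ages, Sycp1, Sycp3 and Syce3 had their highest levels before P5. Sycp1 reached 2631 CPM at E16.5, from 379 at E14.5, and stood at 1829 at E18.5 before the 1453 of P1 and the 441 of P5. Sycp3 was highest at P1 and Syce3 at E18.5, with 1066 CPM. Against this Zp3 was at or below 1 CPM at every fetal age from E12.5 on, with 0 UMIs at E16.5, and Padi6 was at 0.794 CPM at E18.5. Ooep was already present at E12.5, at 32.8 CPM, had its lowest level of 5.66 CPM at E16.5 and was at 36.3 at E18.5. Figla climbed from 1.96 CPM at E12.5 to its highest level at P1.

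**Figure D4:**
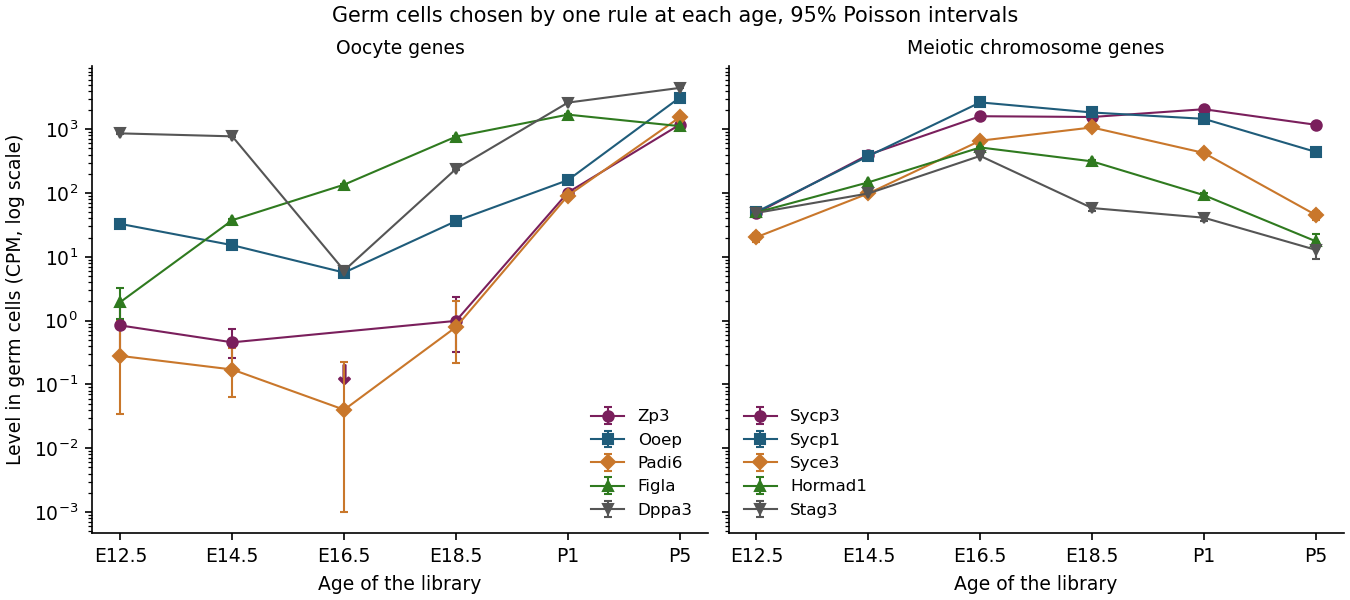
Pooled level in CPM, on a log axis with exact 95% Poisson intervals, of 5 oocyte genes and 5 meiotic genes in germ cells chosen by the same rule at each age from E12.5 to P5, with 1 library an age. The arrow marks the upper limit for Zp3 at E16.5, where it had 0 UMIs.

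The germ granule and piRNA genes silence transposons. Of 13 compared, 3 were at least 2-fold lower and none at least 2-fold higher, against 10.3% and 14% of all genes compared, with a median ratio of 0.695. The 3 were Mov10l1, the helicase that feeds piRNA precursors, at 0.359, Mael at 0.406 and Rnf17 at 0.448. Gtsf1, a small zinc finger partner of the PIWI proteins, was above its P1 level, at 1180.2 CPM against 805, a ratio of 1.47 (1.41 to 1.53), and so was Tdrd5, a Tudor-domain gene of the granules, with 1.42 (1.25 to 1.61). Thinned to 4000 UMIs a cell, 2 of the 3 lower genes were still 2-fold lower, and Rnf17 fell just short at a ratio of 0.502.

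Of 16 genes of meiotic arrest and of the later divisions, 6 were at least 2-fold higher and 1 lower, with a median ratio of 1.58. Among all genes compared the shares were 14% and 10.3%. Fbxo43, 1 of the 6, had a ratio of 2.04, but 1.55 as a mean of per-cell CPM and just under 2-fold without the deepest oocyte. Cdk1, the kinase that drives entry into division, was at 298 CPM against 192, a ratio of 1.55 (1.42 to 1.69), and Mad2l1, of the spindle checkpoint, at 121 against 72.3. Wee2, the oocyte kinase that keeps CDK1 inactive, was at 40.1 CPM against 7.73 (ratio 5.18, 3.68 to 7.43), Mos, which later holds the egg in metaphase, at 33.0 against 7.21, and Cdc25b, the phosphatase that opposes Wee2, at 26.6 against 3.61. Ccnb3, a meiotic cyclin, was the member that was lower, with 4 UMIs at P5 against 168 at P1, 24.7-fold lower (9.46 to 91.6).

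Of 13 genes of follicle activation and Kit signalling, 2 were at least 2-fold higher and 1, the Foxo3 named above, at least 2-fold lower, shares near the 14% and 10.3% of all genes compared. Kit, the receptor for granulosa Kit ligand, ran from 0 to 914 CPM with a median of 181 and was at 178 CPM against 270.0 at P1, a ratio of 0.658. Cdkn1b, an inhibitor of the cell cycle that restrains activation, was 5.83-fold higher (3.73 to 9.40) yet at 26.0 CPM remained under the 117 of the other P5 cells. Gja4 (connexin 37), which joins oocyte and granulosa cells, was 2.99-fold higher. Of 12 survival genes, 1 was higher and 2 were lower by 2-fold or more, beside the same shares of all genes. Bcl2l10, an oocyte member of the BCL2 family, was 7.64-fold higher (5.42 to 11.0), and Trp63, whose product acts in the oocyte response to DNA damage, was at 45.9 against 33.8 CPM. Mcl1 and Pmaip1 were the 2 that were lower, at ratios of 0.487 and 0.403, the latter on 9 UMIs at P5. As a mean of per-cell CPM Pmaip1 was at 0.667, and so no longer 2-fold lower. With thinned cells Mcl1 was no longer 2-fold lower, on 10 UMIs at P5 and 43 at P1, and Pmaip1 had 0 at P5, under the floor. Uchl1 was in every oocyte at 296 to 4326 CPM with a median of 2629, and its ratio was 1.36.

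Of 6 genes that act in fertilization, 4 were at least 2-fold higher and none lower, beside 14% and 10.3% of all genes compared. The Mos named above is 1 of the 4. Astl (ovastacin), the protease that later cleaves Zp2, led them, from 2.06 to 43.3 CPM, a ratio of 21.0 (11.7 to 41.6). Izumo1r (Juno), the sperm receptor of the egg membrane, was 2.69-fold higher. Of 8 energy genes 5 were at least 2-fold higher and 1, Ldha, at least 2-fold lower, beside the same shares of all genes. With thinned cells 4 of the 5 passed, and Ldha had 2 UMIs at P5, under the floor of 3 counts. Gatm, 1 of the 5, had a ratio of 2.14, or 1.89 with thinned cells and 1.48 at 3 UMIs of Dazl plus Ddx4. Ldhb, the lactate dehydrogenase form that favours pyruvate, was in every oocyte, with 2775 CPM at P5 against 1334 at P1, a ratio of 2.08 (2.02 to 2.14). Ldha, the other form, was at 10.5 CPM in P5 oocytes against 236 in the other P5 cells.

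**Figure D5:**
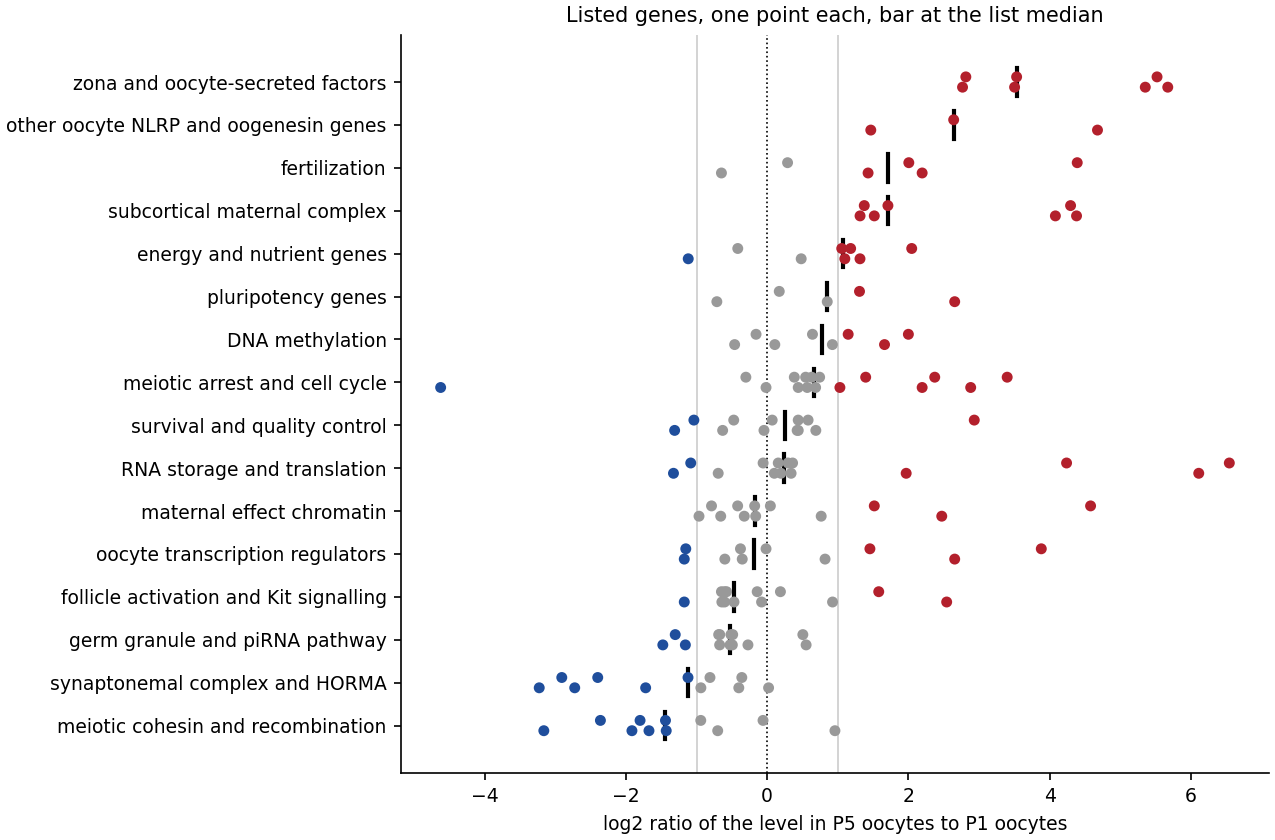
Log2 ratio of P5 to P1 oocytes for each gene of each role list that could be compared, in red at 2-fold higher or more, blue at 2-fold lower or more and grey between, with a bar at each list median and a dotted line at the median of all 11276 genes. The zona and complex lists lie wholly above 1, and no synaptonemal or recombination gene does.

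Outside the lists, the largest ratio of P5 to P1 oocytes belonged to Elobl, an elongin B-like gene, which went from 4 to 474 UMIs, a ratio of 202 (78.3 to 743). Others were Oas1d and Oas1c, members of 1 gene family that may share reads, with ratios of 98.2 (59.2 to 176) and 62.0 (42.4 to 94.6), the uncharacterised E330034G19Rik at 93.8 CPM against 1.03, and Khdc1b, which was at 193 CPM against 4.64. Among the smallest ratios were Tex101, a germ cell surface protein with 977 UMIs in P1 oocytes and none at P5 (at least 191-fold lower), Ly6k, its binding partner, with 3 UMIs at P5, and Taf7l, a germ cell form of a TFIID subunit, at 9.35 against 602 CPM. Gc, the vitamin D binding protein, was at 9.35 CPM against 145, and in other cells of either age at 1.20 or less. The neutrophil genes Camp, Ngp and Stfa1 were also among the 10 smallest, but they were high in the other P1 cells, at 1652, 1364 and 1447 CPM, and only 36.3, 72.8 and 99.4 in the other P5 cells. In P1 oocytes they stood at 119, 101 and 138 CPM, lower at P5 as in the rest of each library, and the part of RNA from other cells in these values was not tested.

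The P5 oocytes were also compared with each other by depth, since they spanned a wide range of UMIs. The 29 deeper oocytes (61792 to 154669 UMIs) were set against the 29 shallower (6507 to 61393). Of 9293 genes 482 (5.19%) were at least 2-fold higher in the deeper cells and 223 (2.4%) at least 2-fold lower, with a median ratio of 1.04. Of the zona and secreted-factor genes 5 of 7 were at least 2-fold higher, with a median ratio of 2.72, and of the complex genes 3 of 7, with a median of 1.90. None of 12 piRNA genes and none of 10 synaptonemal genes passed 2-fold in either direction. Zp3 stood at 1453 CPM in the deeper and 535 in the shallower cells, Ooep at 3778 and 1607, and Zar1 at 214 and 35.3. Without the deepest oocyte, which lies in the deeper group, a choice made after seeing the data, 368 genes were at least 2-fold higher and 204 at least 2-fold lower. The zona and secreted-factor genes at least 2-fold higher were then 2 of 7, with a median ratio of 1.83, the complex genes 2 of 7, with a median of 1.65, and Zar1 was at 136 CPM in the deeper cells, a ratio of 3.86 in place of 6.05. With all 58 oocytes kept, Sycp3 was at 1147 CPM in the deeper and 1235 in the shallower cells, and Figla at 1178 and 974. In that full comparison the genes with the smallest ratios were led by mitochondrial ones, such as mt-Nd1 at 2451 against 5627 CPM. The mitochondrial share per cell was 0.0976 to 5.66% in the deeper oocytes, with a median of 3.91%, and 1.26 to 29.8% in the shallower, with a median of 6.47%, and its part in the other differences by depth was not tested. Across the 58 oocytes, which share 1 library and differ in depth, Zp3 CPM ran with that of Zp2 (Spearman's rho 0.900), Gdf9 (0.857) and Padi6 (0.807). It ran less with Uchl1 (0.482), hardly with Kit (-0.0746) and against Sycp3 (-0.437). Among the 43 with at least 40000 UMIs the values were, in the same order, 0.934, 0.897, 0.899, 0.579, 0.194 and -0.534. In the 43 oocytes with at least 40000 UMIs, Zp3 was at 1000 CPM or more in 16 and under 200 in 10, whereas Uchl1 and Dppa3 were at 1000 CPM or more in all 43.

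X-linked RNA differed between the oocytes and the other P5 cells. Xist, the RNA that coats the inactive X of female somatic cells, was at 30.4 CPM (24.8 to 36.8) in P5 oocytes, 53.4 in P1 oocytes and 1859 (1845 to 1874) in the other P5 cells. With every cell thinned to 4000 UMIs, 10 of 58 oocytes had an Xist UMI, or 17.2% (8.59 to 29.4%), against 90.9% of the other P5 cells, and without thinning 75.9% and 92.1%. X-linked genes without Xist made up 3.07% of chromosomal UMIs in the oocytes, with single cells between 2.43 and 3.75%, and 4.18% in the other P5 cells. At P1 the shares were 3.32% in oocytes and 3.70% in the other cells. The median ratio of oocytes to other P5 cells was 0.743 over 521 X-linked genes and 0.95 over 14408 autosomal genes.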

How the data were processed

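Gonads and ovaries of 7 ages were profiled on the 10x Genomics v2 platform, 1 library an age. The deposited count matrices held UMI counts per gene and cell barcode, which the authors made with Cell Ranger 3.1.0 on mm10. All values were computed from these counts with Python 3.11.15, numpy 2.4.6, scipy 1.17.1, pandas 2.3.3 and scanpy 1.11.5, and plotted with matplotlib 3.10.9. Cells needed 2000 genes, and oocytes 5 UMIs of Dazl plus Ddx4 in addition. UMIs were summed over each pool and scaled to 1e+06. Ratios used a floor of 3 counts and needed 20 UMIs over both pools, with genes called at 4-fold within P5 and at 2-fold between ages or between deeper and shallower oocytes. Every barcode of a pool had at least 4000 UMIs and could be thinned. Intervals were exact 95% binomial, Poisson or conditional intervals, and with 1 library an age no test was made. Fold calls were tried on simulated Poisson pools of like size, and intervals on Poisson counts, without variation between cells. The real pools differ in size and hold uneven cells, which these trials do not cover. Scrublet, run with 30 components, marked 120 of 6519 P5 barcodes (1.84%) and none of the 58 oocytes, and 159 P1 barcodes (2.48%) with 6 of the 192 oocytes, and none was removed. Genes named were members of 17 role lists, the 15 largest ratios to other P5 cells at 100 CPM or more, the 10 largest and 10 smallest ratios between ages and between depths at 50 CPM or more, and the 10 genes with most UMIs. The members and lists were chosen with earlier results of these data known. Promoter sequences were those of RefSeq for GRCm38.p6. The set of promoters used here held no entry for Zp1, Zp2 and Gdf9, among others. Alternatives were other cell thresholds, filters, folds, thinning and per-cell means.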

Additional observations from a re-analysis of the deposited data

How the results depend on the processing

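No paired analysis was possible because each age was 1 library and the values come from no test. The number of oocytes was 49 to 59 under the other cell thresholds. The mitochondrial share of oocyte UMIs, 4.72% as reported, was 4.78% at 3 germ UMIs, 4.47% at 10, 4.67% at 3000 genes, 6.41% as a mean over cells and 6.40% after thinning. The X-linked share, 3.07%, was 3.11% as a mean over cells and after thinning. Thinning left pools of 232000 and 768000 UMIs, in which 651 genes were lower than in other P5 cells and 584 were higher and 761 lower than at P1. With 50 UMIs required, 1030 genes were higher than at P1. With no filter 4036 genes were higher than in other P5 cells and 2454 higher than at P1. At 2-fold 3600 genes were higher and 4551 lower than in other P5 cells, and at 4-fold 508 were higher and 255 lower than at P1. Rad21l and Pmaip1 turned to ratios of 1.66 and 3.31 after thinning, where P5 had 0 UMIs of each and P1 had 6 and 3, so that the floor of 3 counts sets the ratio. Without the deepest oocyte, a choice made after seeing the data, 1488 genes were higher and 1147 lower than at P1. Of 96 named genes past 2-fold between the ages, 85 were still past it after thinning and 92 without that oocyte. Without it Zbed3 was at 1.78, Dnmt1 at 1.91 and Mcl1 at 0.505, with Fbxo43 just under 2-fold. As a mean of per-cell CPM 93 were still past it, without Taf4b, Fbxo43 and Pmaip1. At 3 germ UMIs 94 were, with Gatm at 1.48 and Mcl1 at 0.502. Depth limits what is said of genes under 20 UMIs.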

Other observations

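A few oocytes stood apart and were singled out after their values were seen. The deepest oocyte, with 154669 UMIs, held 542 UMIs of Gdf9, where no other oocyte had more than 167, and 521 of Zbed3, where no other had more than 65. It also held 40 UMIs of Fbxo5, an inhibitor of the anaphase-promoting complex, against at most 9 in any other oocyte, but only 2 UMIs of Kit. Its Malat1 level was 181 CPM and its mitochondrial share 0.0976%, the lowest of the 58 in both. The next lowest Malat1 levels were 232, 367 and 451 CPM, after which the oocytes began at 1531, and the highest was 170490.0 CPM. That highest level was in an oocyte of 6757 UMIs, 1152 of them Malat1. The same oocyte had the lowest CPM of Uchl1, on 2 UMIs, and of Dppa3, on 4 UMIs, with somatic markers at 0.622%. Another oocyte held 567 UMIs of Hbb-bs, 217 of Hbb-bt, 280 of Hba-a1 and 224 of Hba-a2, near-identical globin copies that may share reads, while no other oocyte had more than 93 of Hbb-bs. Somatic markers made up 1.97% of its UMIs against a median of 0.134%, with Foxl2 and Col1a1 at 0. Zp3 and Ooep in that cell were at 17 and 18 UMIs. Mitochondrial genes gave 4.72% of oocyte UMIs and 5.51% of those of the other P5 cells, and ribosomal protein genes 21.6% and 24.8%.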
